A study of Mus musculus with 6 samples.

Results

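The expression of 9 genes was examined in leukemic blasts of mice: the receptor tyrosine kinases *Kit*, *Flt3*, *Csf1r* and *Tek*, the cytokine receptors *Csf3r*, *Csf2ra*, *Csf2rb* and *Il3ra*, and *Angpt1*, which encodes angiopoietin-1, a ligand of the receptor encoded by *Tek*. The genes were chosen by symbol, with earlier results of these data known, and all 9 were found among the 53458 genes of the annotation. Of these, 22170 genes had enough reads to be tested and 8 of the 9 were among them, the exception being *Tek*.

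Hematopoietic growth factors bind receptors on stem cells, progenitors and mature myeloid cells and thereby control survival, division and lineage output. KIT binds stem cell factor, FLT3 binds FLT3 ligand and CSF1R binds M-CSF, and all 3 are kinases that phosphorylate themselves after ligand binding. The receptors of GM-CSF and IL-3 carry no kinase of their own. Each pairs a ligand-specific alpha subunit (*Csf2ra*, *Il3ra*) with the beta subunit encoded by *Csf2rb*, whereas the G-CSF receptor (*Csf3r*) pairs with itself. In acute myeloid leukemia (AML), KIT, FLT3 and CSF3R are known sites of activating mutations, and CEBPA is a transcription factor known to act on the genes of the G-CSF and M-CSF receptors.

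RNA-seq was performed on AML blasts of 3 *Cebpa*-/p30 *Tet2*+/+ mice (mice 19, 23 and 24) and 3 *Cebpa*-/p30 *Tet2*-/- mice (mice 5, 7 and 8), with 1 library per mouse. Blasts of both genotypes carried 1 deleted *Cebpa* allele and 1 allele that makes only the short p30 protein, so that the groups differ by *Tet2*, which encodes a DNA demethylase. Floxed alleles were removed by *Mx1*-Cre, which is driven by an interferon-inducible promoter, after marrow cells of C57BL/6J donors had been transplanted into lethally irradiated C57BL/6J.SJL recipients. Live donor-derived (CD45.2+) marrow cells of moribund recipients were sorted without cells bearing the T cell, B cell and erythroid surface markers of the sort, and ages were not used here. The comparison asks which of the receptors and which ligand differ in abundance when TET2 is lost from a p30-driven leukemia.

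The libraries held between 13036643 and 32855343 estimated reads, and mouse 5 had the deepest one. Reads summed over the whole *Tet2* gene ranged from 73.6 to 98.4 CPM (read counts scaled to a common library size, TMM-normalized) in *Tet2*+/+ blasts and from 79.4 to 111 CPM in *Tet2*-/- blasts (edgeR, adjusted p = 0.842), a sum that does not check the deletion since which part of the gene the floxed allele removes was not given in the sources used here. *Cebpa* had 207 ± 74.4 CPM (SD, n = 3) in *Tet2*+/+ blasts and 119 ± 41.2 CPM in *Tet2*-/- blasts (edgeR, adjusted p = 0.632). *Gata2*, a transcription factor of stem cells and mast cells, had 26.2 ± 2.52 CPM and 6.08 ± 2.22 CPM (SD, n = 3; edgeR, adjusted p = 0.117), and passed with DESeq2 (adjusted p = 5.4e-08), with DESeq2 on length-scaled counts (5.0e-07) and in edgeR without a filter on low counts (0.0336). The 6 genes of the myeloid blast list (*Ptprc*, *Itgam*, *Mpo*, *Elane*, *Prtn3*, *Ctsg*) summed to between 7055 and 9424 CPM in all 6 mice, while *Cd3e* stayed between 1.14 and 4.24 CPM. Neutrophil genes differed widely within both genotypes, with sums of 3970 to 25730 CPM in *Tet2*+/+ mice and of 9683 to 51617 CPM in *Tet2*-/- mice, and mouse 7 held the highest sum. The lists of lymphoid, megakaryocyte and erythroid genes overlapped between the genotypes, with sums of 22.3 to 81.7 CPM for B cells, 52.4 to 120 CPM for T and NK cells, 12.4 to 48.2 CPM for megakaryocytes and 1.62 to 88.8 CPM for erythroid cells, the last highest in mouse 19.

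Of the 8 genes tested, *Angpt1* passed the threshold of an adjusted p under 0.05 and was lower in *Tet2*-/- blasts, beside 0.0451% of all genes tested, which were all lower. None of the 7 receptor genes tested did. Because the genes were chosen with earlier results of these data known, shares of all genes are given for scale and are no test of the set. At an unadjusted p under 0.05, 1 gene was lower (*Angpt1*) and 1 higher (*Csf2rb*), beside 5.12% and 3.0% of all genes tested, 8.11% in either direction. The same pair did not overlap between the genotypes, with every *Tet2*-/- mouse lower for *Angpt1* and higher for *Csf2rb*. Among the genes averaging 1 CPM or more, 16.0% did not overlap, 7.71% lower and 8.24% higher. The median log2 fold change of the 8 genes was 0.39 and that of all genes tested was 0.0016. With DESeq2, which called 1.47% of all genes tested as lower, 1 of the 8 genes passed, again *Angpt1*. Each mouse was a separate recipient, but donors were each represented by several recipients in the study and the labels do not give the donor, so mice of a genotype may share one and p-values measure only the spread among these recipients.

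**Figure D1:**
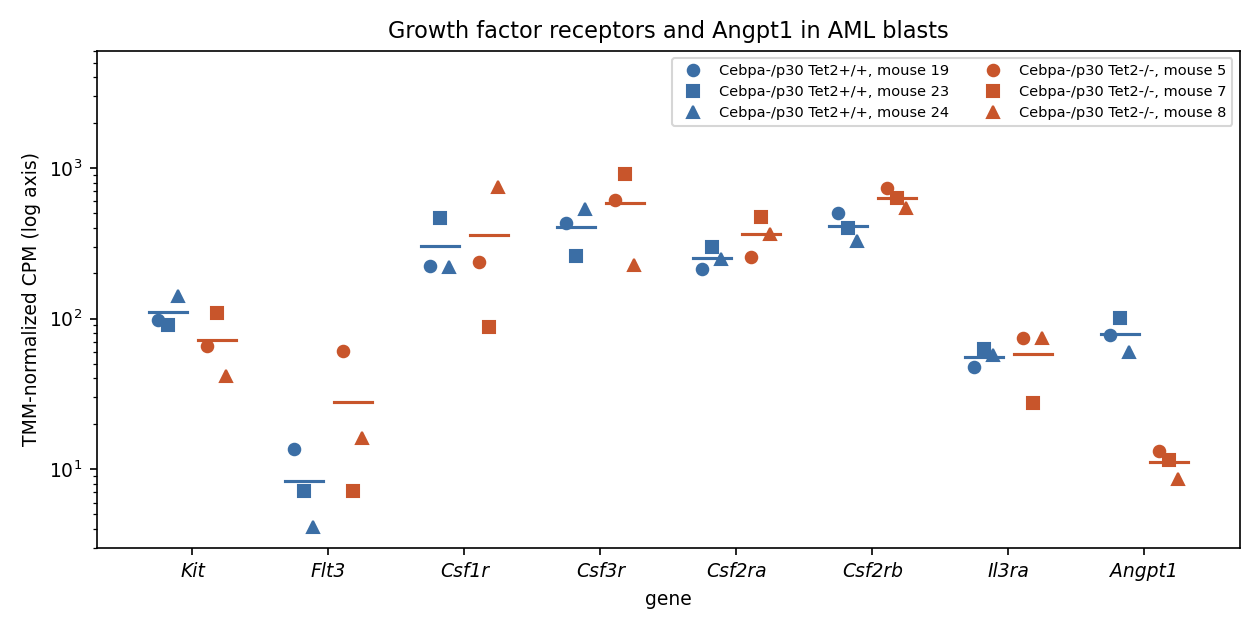
TMM-normalized CPM on a log axis for the 8 genes that could be tested, with 1 point per mouse and a line at the mean of 3 mice per genotype. *Angpt1* and *Csf2rb* show groups that do not overlap, whereas the *Tet2*-/- mice of *Flt3* span 7.14 to 60.4 CPM and those of *Csf1r* span 87.4 to 749 CPM. *Tek*, with 2 counts in all, is not drawn.

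**Figure D2:**
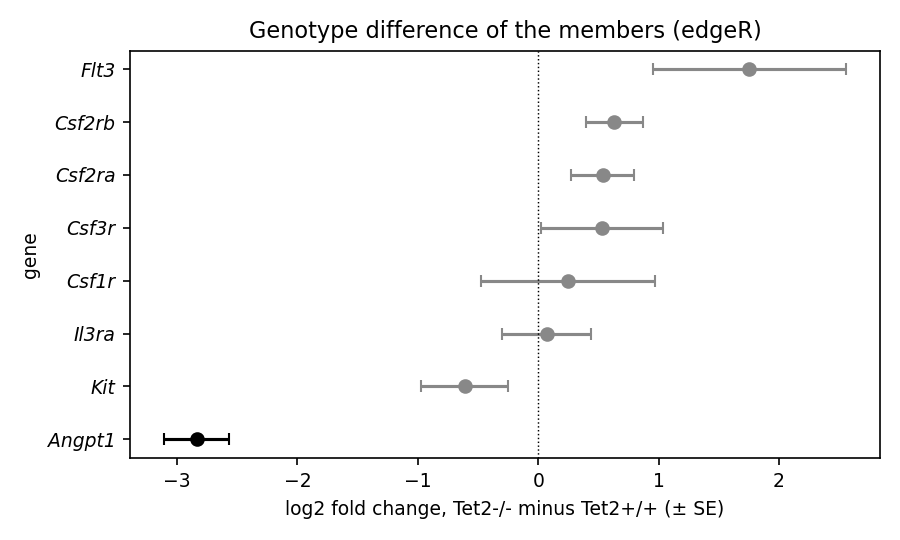
Log2 fold change of each gene, *Tet2*-/- minus *Tet2*+/+, with its standard error from edgeR. *Angpt1* at -2.84, in black, is past the threshold, and the 7 receptors in grey lie between -0.61 (*Kit*) and 1.75 (*Flt3*).

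*Angpt1*, the ligand, had 77.7, 101 and 59.5 CPM in the *Tet2*+/+ mice (values are given in the order of mice 19, 23 and 24) and 13.2, 11.5 and 8.57 CPM in the *Tet2*-/- mice (in the order of mice 5, 7 and 8). The *Tet2*+/+ mouse with the least *Angpt1* held more than any *Tet2*-/- mouse, and within each genotype the mice differed by at most 1.69-fold. The gene, on the minus strand at chr15:42424723-42676977 (GRCm38), fell by 2.84 ± 0.27 on the log2 scale (SE, n = 3 mice per genotype), a 7.14-fold lower level (edgeR's quasi-likelihood test, adjusted p = 0.0348). The exact two-sided permutation test gave p = 0.1, the smallest that 3 mice against 3 allow. Without 1 mouse at a time, the log2 fold change of *Angpt1* was -3.01 to -2.64, and the adjusted p of edgeR rose to between 0.0930 and 0.179, so that each of the 6 mice was needed for the call. In a bulk sample, fewer cells of a type and less RNA per cell cannot be told apart.

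Of the *Angpt1* reads, between 96.5% and 99.1% were assigned to its coding transcript. The log2 fold change of this transcript was -2.84 ± 0.29 (SE, n = 3), with an adjusted p of 0.194 in edgeR over 66893 transcripts. A noncoding antisense gene, Gm17473, overlaps the locus on the plus strand, and 15.8% of the 75-base windows of this coding transcript are also found in it, on the opposite strand. It held between 0 and 14 counts per mouse, against 158 to 1882 for *Angpt1*, and use of strand in counting was not given in the sources used here.

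Summed markers of some other marrow cells were lower beside *Angpt1*. The basophil and mast cell list summed to between 281 and 368 CPM in *Tet2*+/+ mice and between 25.7 and 102 CPM in *Tet2*-/- mice, with 2 genes lower, 1 higher and 2 too low to test. Most of that sum came from *Cpa3*, a mast cell protease that early progenitors also express, with 264, 362 and 336 CPM against 87.7, 47.5 and 16.8 CPM, while *Fcer1a* and *Prss34* had at most 3 counts in any mouse. The other mature markers were present at low levels, *Mcpt8*, a basophil protease, at 3.91 to 16.4 CPM and 3.28 to 7.15 CPM and *Ms4a2*, an IgE receptor subunit, at 1.55 to 6.04 CPM and 3.47 to 6.68 CPM, and both overlapped between genotypes. The stem and progenitor list ranged from 177 to 317 CPM and from 43.4 to 137 CPM, nearly all of it *Cd34*, with 4 of the 5 genes lower and *Mecom* at no more than 3 counts. Marrow stroma genes summed to 36.8 to 80.8 CPM and 11.9 to 33.3 CPM, with 5 of 5 log2 fold changes negative, but without *Pdgfrb* the sums overlapped (3.32 to 46.1 CPM and 2.06 to 23 CPM, a sum added after the data were seen). Cells were sorted for CD45.2, and the stroma gene *Cxcl12* had 0.163 CPM in mouse 8 and up to 27.6 CPM in mouse 24. No gene of these lists passed the threshold. The part of the basophil, mast, progenitor and stromal cells in the *Angpt1* difference was not tested.

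*Tek* encodes TIE2, the receptor of angiopoietins on endothelial cells and some stem cells. It had 0 counts in 5 mice and 2 counts in mouse 7, at chr4:94739289-94874976. A count of 0 allows up to 3 counts, which is 0.0949 to 0.211 CPM in these libraries, an interval that covers counting error only. The gene was therefore not detectable at this depth in 5 of the 6 mice, and no change was computed. Of the endothelial list, *Emcn* had at most 1 count and *Cdh5* stayed below 1 CPM in every mouse, *Kdr* had 1.54 CPM and *Tie1* 4.63 CPM in mouse 7 and at most 0.0633 and 0.493 CPM in the other 5 mice, and nearly all of the list's 59.96 to 227 CPM was *Pecam1*, which leukocytes also express.

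*Kit*, at chr5:75574916-75656722 on the plus strand, encodes the receptor of stem cell factor, a marker of progenitors and mast cells. It had 98.1, 90.3 and 141 CPM in the *Tet2*+/+ mice and 65.6, 108 and 41.7 CPM in the *Tet2*-/- mice. Mouse 7 lay within the *Tet2*+/+ range and mice 5 and 8 below it. A log2 fold change of -0.61 ± 0.36 (SE, n = 3) did not pass the test (edgeR, adjusted p = 0.709, and exact permutation p = 0.3), and without 1 mouse at a time it ranged from -1.03 to -0.34. The *Tet2*-/- order of *Kit* (mouse 7, then 5, then 8) differed from that of *Angpt1* (mouse 5, then 7, then 8).

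The reads of *Kit* were divided mainly between its 2 full-length coding transcripts. Kit-201 and Kit-204 differ at the start of exon 1, where Kit-204 is 39 bases longer, and at the end of exon 9, where Kit-201 holds 12 bases more (chr5:75639147-75639158, plus strand). These bases lie in the region that codes for the extracellular part of the receptor close to the membrane. Since the estimated split rests on reads over these places alone, the stretch around the second one is shown, with the 12 bases in capitals.

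Kit-201: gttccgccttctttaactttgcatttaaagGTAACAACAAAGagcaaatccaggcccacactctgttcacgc

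Kit-204: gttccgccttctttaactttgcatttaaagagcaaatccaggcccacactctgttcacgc

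Of the reads assigned to either form, Kit-201, with the insert, took 74.2%, 51.3% and 33.4% in the *Tet2*+/+ mice and 45.8%, 44.0% and 16.6% in the *Tet2*-/- mice. The shares of the genotypes overlapped (53.0% ± 20.5 and 35.4% ± 16.4, SD, n = 3, exact two-sided permutation p = 0.4). In mouse 19 most of these reads went to the form with the insert and in mouse 8 to the form without it, and the mice within a genotype differed more than the genotype means. Transcripts with a retained intron took the rest, and Kit-208 held between 3.45% and 16.9% of all *Kit* reads.

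**Figure D3:**
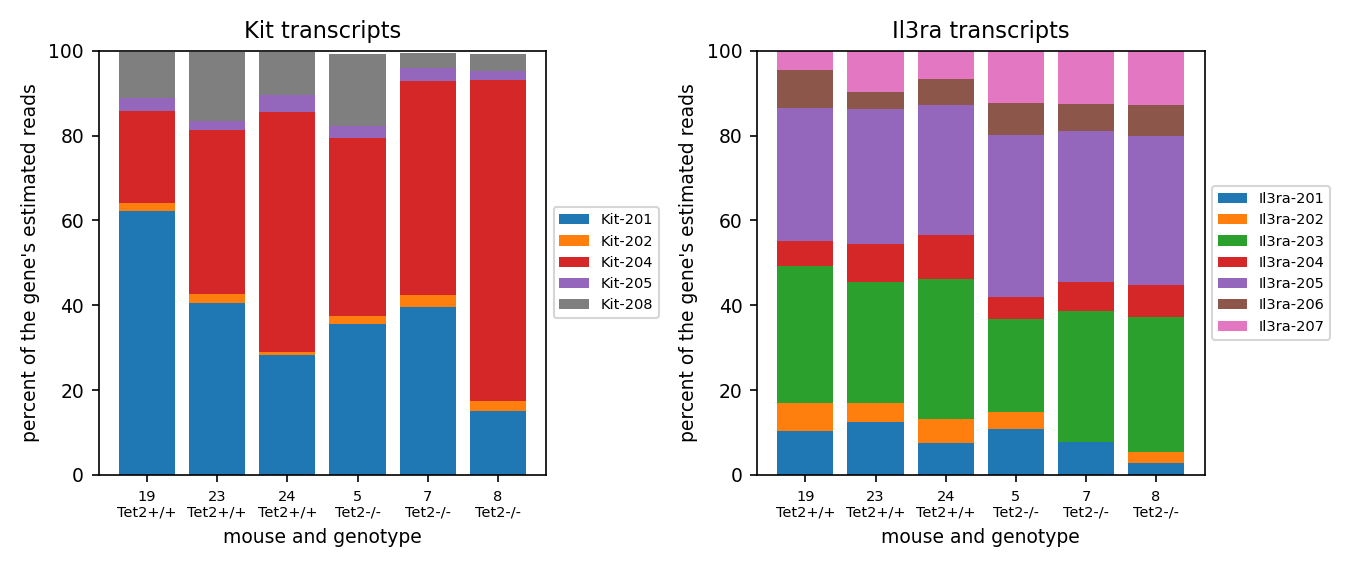
Percent of each gene's estimated reads assigned to its transcripts, for *Kit* and *Il3ra*, with 1 stacked bar per mouse. Transcripts under 1% in all mice are left out, so the *Kit* bars end just below 100. Kit-201 ranges from 15.0% (mouse 8) to 62.2% (mouse 19), and Il3ra-207 is higher in each of the 3 *Tet2*-/- mice.

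*Flt3*, the receptor of FLT3 ligand on multipotent and lymphoid progenitors and dendritic cell precursors, lies at chr5:147330741-147400489 on the minus strand. Its levels were low, with 13.6, 7.12 and 4.15 CPM in the *Tet2*+/+ mice and 60.4, 7.14 and 16.1 CPM in the *Tet2*-/- mice. Mouse 5 stood above all others, and mouse 7 had almost the same level as mouse 23. Its log2 fold change of 1.75 ± 0.80 (SE, n = 3) did not pass the test (edgeR, adjusted p = 0.640, and exact permutation p = 0.2). Without mouse 5, it was 0.48. The sums of the dendritic cell list overlapped (63.9 to 86.0 CPM and 47.8 to 87.1 CPM), with mouse 5 the lowest, and the stem and progenitor list summed to 108 CPM in mouse 5, below the 177 to 317 CPM of the *Tet2*+/+ mice. Within that list, *Cd34* made 90.0 CPM of the sum in mouse 5, while *Ly6a* was highest there at 18.1 CPM against 3.59 to 6.32 CPM in the *Tet2*+/+ mice.

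*Csf1r* and *Csf3r* are the receptors of M-CSF and G-CSF, the factors of monocytes and of granulocytes. *Csf1r* (chr18:61100598-61132149, plus strand) had 223, 465 and 219 CPM in the *Tet2*+/+ mice and 238, 87.4 and 749 CPM in the *Tet2*-/- mice. The highest and the lowest level of all 6 were thus both in *Tet2*-/- mice, which differed 8.56-fold. Between genotypes, the log2 fold change was 0.24 ± 0.72 (SE, n = 3; edgeR, adjusted p = 0.959), the exact permutation p was 0.8, and without mouse 8 the sign turned to -0.90.

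*Csf3r* (chr4:126024550-126044440, plus strand) had 429, 260 and 531 CPM in the *Tet2*+/+ mice and 617, 918 and 227 CPM in the *Tet2*-/- mice. Here mouse 7 was the highest and mouse 8 the lowest, the reverse of their places for *Csf1r*, and mouse 23, which held the most *Csf1r* among the *Tet2*+/+ mice, held the least *Csf3r*. The log2 fold change was 0.53 ± 0.50 (SE, n = 3; edgeR, adjusted p = 0.832), the exact permutation p was 0.5, and without mouse 7 it was 0.06. The main coding transcript of *Csf3r* took between 72.7% and 77.1% of its reads, and a second coding transcript with more exons took 11.2% to 12.6% in every mouse.

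Some genes of monocytes and neutrophils followed these receptors from mouse to mouse. *Ccr2*, the chemokine receptor of inflammatory monocytes, had 151, 480 and 117 CPM in the *Tet2*+/+ mice and 318, 38.6 and 674 CPM in the *Tet2*-/- mice, and *Cx3cr1*, the fractalkine receptor, had 31.6, 74.7 and 12.5 CPM and 26.0, 2.44 and 202 CPM. Both were highest in mouse 8, next in mouse 23 and lowest in mouse 7. *Ly6c2*, the most abundant gene of the monocyte list, did not follow *Csf1r*, with 1623, 1428 and 1049 CPM against 2993, 2124 and 2495 CPM, highest in mouse 5. The neutrophil list was highest in mouse 7 (51617 CPM) and lowest in mouse 23 (3970 CPM), followed by mouse 8 (9683 CPM). *Ly6g*, a surface protein of mature neutrophils, had 194, 34.8 and 34.0 CPM in the *Tet2*+/+ mice and 338, 522 and 33.5 CPM in the *Tet2*-/- mice. It did not follow *Csf3r* in mouse 24, which had the most *Csf3r* of the *Tet2*+/+ mice but *Ly6g* near that of mice 23 and 8. All 5 monocyte genes and all 5 neutrophil genes had positive log2 fold changes, and none passed the threshold. The sums of the monocyte list did not overlap (1337 to 2293 and 2330 to 3835 CPM), whereas those of the neutrophil list did. Without *Ly6c2*, the monocyte sums overlapped as well (288 to 865 and 207 to 1340 CPM, added after the data were seen), and the part of these cells in the receptor levels was not tested.

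**Figure D4:**
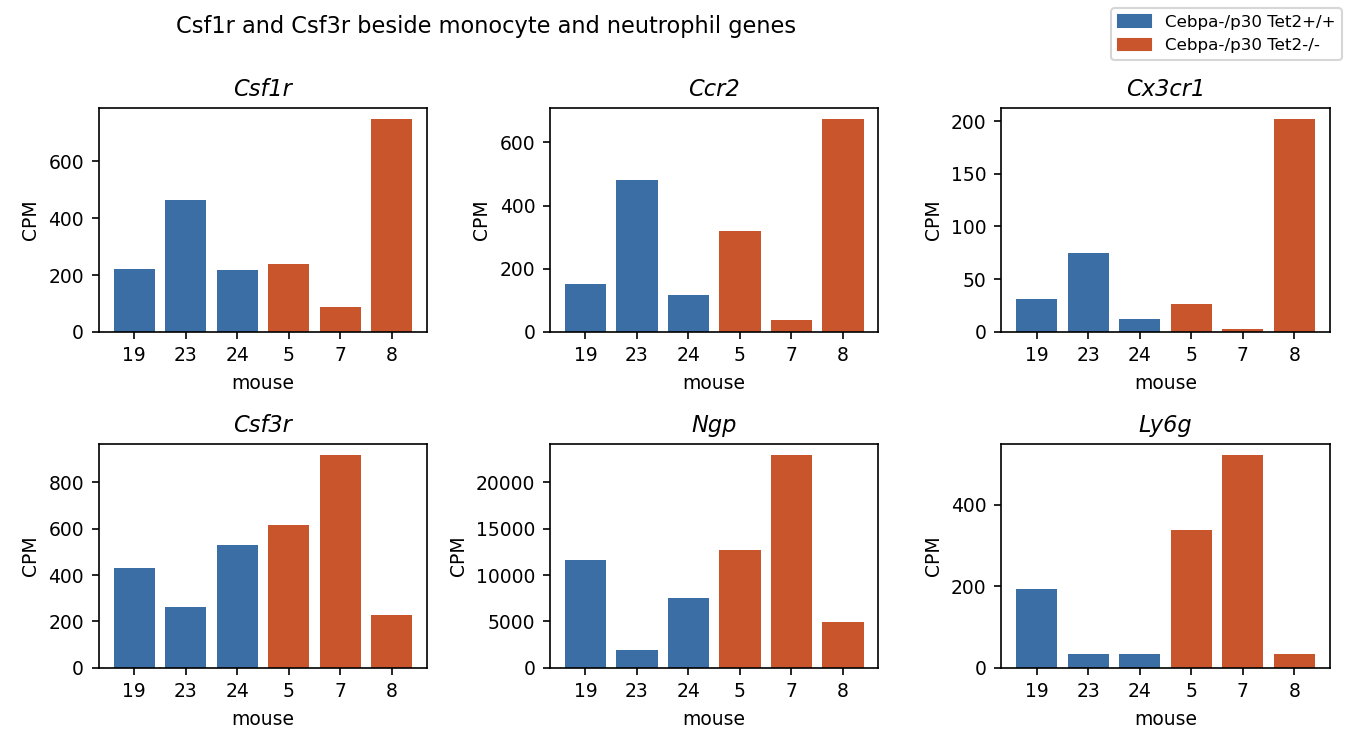
CPM in each mouse for *Csf1r* beside the monocyte genes *Ccr2* and *Cx3cr1*, and for *Csf3r* beside the neutrophil genes *Ngp* and *Ly6g*, with 1 bar per library. Mouse 8 is the highest in the upper row and mouse 7 in the lower row, and both are *Tet2*-/-.

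*Csf2rb*, at chr15:78325752-78353847 on the plus strand, encodes the beta subunit shared by the receptors of GM-CSF, IL-3 and IL-5. It had 504, 399 and 328 CPM in the *Tet2*+/+ mice and 739, 630 and 538 CPM in the *Tet2*-/- mice. Each *Tet2*-/- mouse lay above each *Tet2*+/+ mouse, with means of 411 ± 88.6 CPM and 636 ± 101 CPM (SD, n = 3). The log2 fold change of 0.63 ± 0.24 (SE, n = 3) had an unadjusted p of 0.0310 and an adjusted p of 0.593 in edgeR, and so did not pass the threshold. The exact permutation p was 0.1, the smallest possible here. The difference kept its sign without any 1 mouse, at 0.49 to 0.80, and had an adjusted p of at least 0.261 under every alternative tried.

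Mice carry a second beta subunit gene next to it, *Csf2rb2*, whose product serves IL-3 alone. The coding sequences of the pair were identical at 95.2% of 2628 aligned columns, with an identical run of up to 242 bases, and 11.0% of the 75-base windows of the main *Csf2rb* transcript occur in *Csf2rb2*. Reads from such stretches cannot be assigned to 1 of the genes by sequence. A stretch near the start of the coding sequences shows how few bases tell them apart, with the 3 that differ in capitals.

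Csf2rb: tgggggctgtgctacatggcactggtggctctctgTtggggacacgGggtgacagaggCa

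Csf2rb2: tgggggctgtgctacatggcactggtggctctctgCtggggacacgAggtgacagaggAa

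*Csf2rb2* had 102, 82.7 and 55.3 CPM in the *Tet2*+/+ mice and 140, 62.2 and 92.4 CPM in the *Tet2*-/- mice, which overlap, and a log2 fold change of 0.30 ± 0.34 (SE, n = 3; edgeR, adjusted p = 0.861). Counted together, which does not depend on how reads were split, the genes had 606, 482 and 384 CPM against 880, 692 and 631 CPM. The groups again did not overlap, with a log2 fold change of 0.58 ± 0.25 (SE, n = 3; edgeR, unadjusted p = 0.0499, adjusted p = 0.616). This joint count was added after the data were seen.

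The alpha subunits gave other patterns. *Csf2ra*, the GM-CSF receptor alpha subunit (chr19:61223957-61228429, minus strand), had 212, 297 and 247 CPM in the *Tet2*+/+ mice and 257, 474 and 365 CPM in the *Tet2*-/- mice. Mice 7 and 8 lay above all *Tet2*+/+ mice and mouse 5 within their range. For the genotypes, the log2 fold change was 0.53 ± 0.27 (SE, n = 3; edgeR, adjusted p = 0.658) and the exact permutation p was 0.2.

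*Il3ra*, the IL-3 receptor alpha subunit (chr14:14346275-14356011, plus strand), had 47.4, 62.6 and 57.2 CPM in the *Tet2*+/+ mice and 73.8, 27.5 and 74.3 CPM in the *Tet2*-/- mice. The *Tet2*-/- mice fell on both sides of the *Tet2*+/+ range, with mouse 7 lowest of all. Its log2 fold change was 0.07 ± 0.37 (SE, n = 3; edgeR, adjusted p = 0.981), its sign turned with scaling by library size only (-0.08), and the exact permutation p was 1.

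Shares of the reads were also compared among the *Il3ra* transcripts. The coding transcript Il3ra-205 took 31.3%, 31.7% and 30.6% of the reads in the *Tet2*+/+ mice and 38.2%, 35.7% and 35.3% in the *Tet2*-/- mice. Il3ra-207 took 4.43%, 9.78% and 6.56% against 12.3%, 12.5% and 12.8%, and Il3ra-202 took 6.56%, 4.47% and 5.65% against 4.02%, 0% and 2.61%. All 3 shares did not overlap between the genotypes, each with an exact permutation p of 0.1. Of the 34 transcript shares of the 9 genes that could be computed in every mouse, 4 did not overlap, the other being Kit-207 at under 1% of the *Kit* reads, and since 0.1 is the smallest p possible, none can pass after adjustment. Over the 83456 shares of all genes, 8.08% did not overlap, and no difference in *Il3ra* transcript use is shown by these shares. Reads behind Il3ra-202 and Il3ra-207 numbered at most 94 and 286 per mouse. Across the 31 of 38 transcripts that were tested in edgeR, 0 passed an adjusted p under 0.05, 3 had an unadjusted p under 0.05 (both transcripts of *Angpt1*, lower, and the main transcript of *Csf2rb*, higher), and limma on log2 TPM also called 0; over all transcripts 5.28% had such an unadjusted p.

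Levels of different genes were compared per length, as TPM, the length-corrected share of all transcripts, summed over every transcript of a gene. Short transcripts weigh more in TPM than in reads. The order in the *Tet2*+/+ blasts was *Csf2rb* (140 ± 13 TPM, SD, n = 3), *Csf3r* (116 ± 39.4), *Csf2ra* (74.7 ± 16.3), *Csf1r* (43.2 ± 22.0), *Il3ra* (35.3 ± 6.46), *Kit* (22.1 ± 2.69), *Angpt1* (12.6 ± 4.07), *Flt3* (1.25 ± 0.646) and *Tek* (0 TPM). From *Csf2rb* down to *Il3ra*, the mice of each neighbouring pair overlapped, while *Il3ra*, *Kit*, *Angpt1* and *Flt3* were separate from each other. Most of the *Csf2rb* TPM came from Csf2rb-203 (328 bases) and Csf2rb-208 (340 bases), with 1.70% to 2.20% of its reads each. Its main coding transcript, Csf2rb-201, had 52.8, 46.4 and 37.9 TPM, less than *Csf2ra* (57.8, 90.2 and 76.2 TPM) in each of these mice. Short noncoding transcripts (Csf3r-203 and Csf3r-204) also added to the *Csf3r* TPM. In the *Tet2*-/- blasts, *Csf2rb* was again highest (183 ± 8.18 TPM, SD, n = 3) and the first 6 genes kept that order, with overlap between all neighbours down to *Kit* (15.6 ± 7.44 TPM). *Flt3* (3.90 ± 3.89 TPM) and *Angpt1* (1.63 ± 0.278 TPM) changed places, but the mice of that pair overlapped. Csf2rb-201 alone had 74.9, 65.2 and 58.4 TPM in the *Tet2*-/- mice, below *Csf2ra* (64.2, 124 and 101 TPM) in mice 7 and 8. First place of *Csf2rb* in both genotypes thus rests on its short transcripts.

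Ratios of receptors within a library do not depend on scaling between libraries. The TPM of *Csf3r* was 3.88, 1.13 and 4.88 times that of *Csf1r* in the *Tet2*+/+ mice and 5.10, 21.8 and 0.578 times in the *Tet2*-/- mice. By this measure, to which short noncoding transcripts of *Csf3r* add, mouse 8 alone had more *Csf1r* than *Csf3r*. In estimated counts, not corrected for length, mouse 23 also had more *Csf1r* (ratio 0.56). The log2 TPM ratios differed by 0.53 between the genotype means (SD 1.13 and 2.64, n = 3, exact permutation p = 0.8). *Csf2ra* stood at 0.385, 0.624 and 0.607 of the *Csf2rb* level in the *Tet2*+/+ mice and at 0.334, 0.702 and 0.564 in the *Tet2*-/- mice (log2 difference -0.05, exact permutation p = 0.9). The *Csf2rb* level here includes the short Csf2rb-203 and Csf2rb-208, and Csf2rb-201 alone was below *Csf2ra* in every mouse but mouse 5. For *Il3ra* to *Csf2rb*, the values were 0.185, 0.275 and 0.305 against 0.218, 0.0872 and 0.261 (log2 difference -0.55, exact permutation p = 0.5). Against Csf2rb-201 alone these values would be larger, and ratios to that transcript were not tested. After adjustment over the 3 ratios, each permutation p was 0.9.

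Signals of these receptors pass through shared partners. Of a list of 56 ligands, related receptors, adaptors, kinases and inhibitors, 50 were tested, with 15 negative and 35 positive log2 fold changes and a median of 0.21, beside 11058 and 11112 of all genes tested. With scaling by library size only, the split of the list was 24 and 26. In edgeR, 0 passed an adjusted p under 0.05, while 4 lower and 7 higher genes had an unadjusted p under 0.05 (8.11% of all genes tested did in either direction), and DESeq2 called 4, all lower, beside 1.47% of all genes tested. Among the 44 listed genes averaging 1 CPM or more, 5 lower and 8 higher ones did not overlap between genotypes, beside 7.71% and 8.24% of all genes at that level.

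Of the 10 ligand genes, 4 had enough reads to test, and the genes of G-CSF, GM-CSF, IL-3, IL-5, IL-34 and thrombopoietin had between 0 and 7 counts in every mouse. *Flt3l*, the ligand of FLT3, had the highest level per length among the ligands (10.7 TPM) and similar CPM in both genotypes (16.1 ± 1.79 and 16.4 ± 2.08, SD, n = 3). *Kitl*, which encodes stem cell factor, was at or under 1.27 CPM in all mice. *Csf1*, which encodes M-CSF, ranged from 3.59 to 23 CPM in the *Tet2*+/+ mice and from 8.36 to 11.9 CPM in the *Tet2*-/- mice.

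Related receptors had the most negative median of the 4 roles (-1.94 over 7 genes, of which 4 averaged 1 CPM or more). *Pdgfrb*, a receptor of platelet-derived growth factor usual in stromal cells, had 26.6, 42.7 and 34.6 CPM in the *Tet2*+/+ mice and 10.3, 6.88 and 9.82 CPM in the *Tet2*-/- mice. Its groups were apart, with a log2 fold change of -1.94 ± 0.27 (SE, n = 3; edgeR, adjusted p = 0.108). *Il5ra*, the IL-5 receptor alpha subunit of eosinophils and their progenitors, had 8.43, 22.0 and 12.1 CPM against 2.50, 4.69 and 1.74 CPM (log2 fold change -2.26 ± 0.51, SE, n = 3; edgeR, adjusted p = 0.318). The eosinophil list overlapped between genotypes, at 256 to 299 CPM and 136 to 325 CPM with 5 of 5 genes lower. *Epor*, *Tie1* and *Pdgfra* had means of at most 1.65 CPM in either genotype.

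Of the 27 adaptors and kinases, 24 had positive log2 fold changes (median 0.28), or 20 with scaling by library size only, which moved the median of all genes by -0.17. *Fgr*, a SRC family kinase of myeloid cells, had 244, 169 and 210 CPM in the *Tet2*+/+ mice and 277, 481 and 250 CPM in the *Tet2*-/- mice (log2 fold change 0.69 ± 0.29, SE, n = 3; edgeR, adjusted p = 0.616). *Mapk3*, which encodes the kinase ERK1, had 189, 178 and 159 CPM against 251, 333 and 213 CPM (log2 fold change 0.60 ± 0.21, SE, n = 3; edgeR, adjusted p = 0.581). The groups of both were apart, and the highest level of each was in mouse 7, the mouse with the most neutrophil transcripts. The part of neutrophils in the levels of *Fgr* and *Mapk3* was not tested. *Fes*, a myeloid tyrosine kinase with the highest level per length of this role (318 TPM), overlapped between the genotypes.

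Among the adaptors and kinases, *Gab1* and *Plcg1* had negative log2 fold changes without overlap. *Gab1*, a docking protein of receptor tyrosine kinases, had 6.88, 11.9 and 6.83 CPM in the *Tet2*+/+ mice and 2.56, 0.579 and 1.68 CPM in the *Tet2*-/- mice (log2 fold change -2.39 ± 0.57, SE, n = 3; edgeR, adjusted p = 0.342). Its relatives *Gab2* and *Gab3* overlapped between the genotypes. *Plcg1*, phospholipase C gamma 1, had 31.2, 31.9 and 40.8 CPM against 13.3, 19.9 and 14.1 CPM (log2 fold change -1.14 ± 0.23, SE, n = 3; edgeR, adjusted p = 0.267), whereas *Plcg2*, the form used by myeloid and B cells, had 354 ± 26.0 and 412 ± 98.2 CPM (SD, n = 3). The 4 genes that DESeq2 called were *Pdgfrb*, *Il5ra*, *Gab1* and *Plcg1*, all lower.

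Of the 12 inhibitors, 8 had positive and 4 negative log2 fold changes, a split that turned to 4 and 8 with scaling by library size only. *Ptpn6*, which encodes the phosphatase SHP-1, had the highest level per length of the whole list (1422 TPM) and overlapping CPM (542 ± 62.1 and 565 ± 149, SD, n = 3). *Dusp6*, an ERK phosphatase and a target of ERK signals, had 114, 72.7 and 84.8 CPM against 106, 235 and 304 CPM, with mouse 5 within the *Tet2*+/+ range (log2 fold change 1.25 ± 0.39, SE, n = 3; edgeR, unadjusted p = 0.0143, adjusted p = 0.524). It was singled out after its values were seen.

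**Figure D5:**
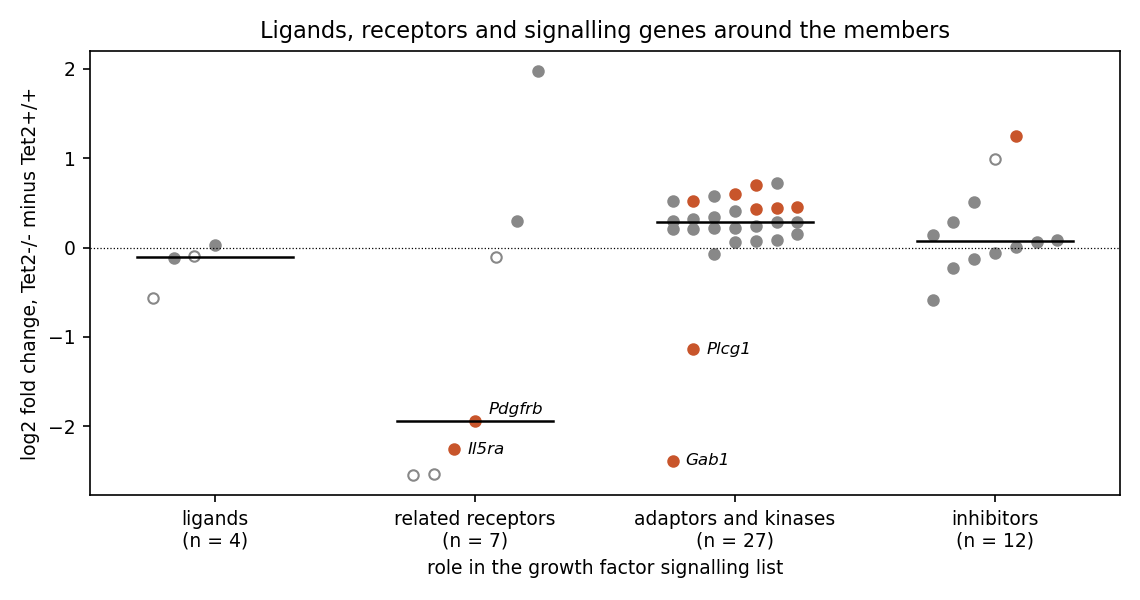
Log2 fold change (*Tet2*-/- minus *Tet2*+/+) of the 50 tested genes of the signalling list by role, with 1 point per gene and a line at the median. Orange points have an unadjusted edgeR p under 0.05, open points a mean under 1 CPM, and genes with an unadjusted p under 0.01 are named. No gene passed after adjustment, and the 4 named ones are all lower.

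Genes with the most similar pattern over the 6 mice were sought for the 2 genes whose log2 fold change was at least 1 in size, among 13579 genes, by the root mean square difference of log2 CPM centred on each gene's mean. For *Angpt1* they were *Sox4*, a transcription factor of progenitors (difference 0.25), the noncoding *Gm32552* (0.29) and the immunoglobulin joining segment *Ighj2* (0.31). *Sox4* had 60, 87.1 and 69.5 CPM in the *Tet2*+/+ mice and 15.2, 13.9 and 10.1 CPM in the *Tet2*-/- mice, and, like *Angpt1*, had an adjusted p of 0.0348 in edgeR. For *Flt3* they were *Serpinf1* (0.33), *Nefh* (0.44) and *Sema6b* (0.49). *Serpinf1*, which encodes a secreted serpin, had 10.2, 5.68 and 2.25 CPM and 24.8, 3.73 and 8.25 CPM, and its highest level was in mouse 5, as for *Flt3*.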

How the data were processed

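Total RNA of sorted blasts was made into TruSeq libraries, sequenced on a NextSeq instrument and quantified by the authors with Salmon 0.12.0 against Ensembl transcripts of GRCm38. The deposited estimated counts are reads per transcript and are not normalized. The deposited TPM values are those of Salmon, corrected for effective length. The effective lengths, also deposited by the authors, were used for length scaling.

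Estimated counts of 136288 transcripts were summed to GENCODE M21 genes and rounded. The 112 transcripts without a gene (0.0307% to 0.0416% of reads) were left out. Genes whose normalized counts summed to at least 10 were tested in edgeR 4.0.16 (quasi-likelihood, R 4.3.3, TMM, no covariates) with Benjamini-Hochberg adjustment over all 22170. Standard errors were obtained as log2 fold change over the root of F. Exact permutation tests enumerated all 20 splits of the mice. Alternatives were DESeq2 1.42.0, length-scaled counts, other scalings and filters, robust estimation, leaving out each mouse, and limma 3.58.1 on transcripts. The scripts were tested on simulated data. CPM is TMM-normalized. Python 3.11.15, pandas 2.3.3, SciPy 1.17.1 and matplotlib 3.10.9 were used.

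Genes and lists were chosen with earlier results of these data known. Named were the 9 genes, *Tet2*, *Cebpa* and *Gata2*. Of the signalling list, genes past the threshold, genes without overlap at a mean of at least 1 CPM and a log2 fold change of at least 0.5 in size, and the highest TPM of each role were named. Other names of that list, given for their levels, were chosen after their values were seen. Up to 3 genes of most similar pattern were named for genes with a log2 fold change of at least 1 in size. Lists of B cells, T and NK cells, erythroid cells, endothelial cells, marrow stroma, megakaryocytes, basophils and mast cells, eosinophils, monocytes, neutrophils, dendritic cells, stem and progenitor cells and myeloid blasts were summed in CPM. Sequences came from the GENCODE M21 transcripts of GRCm38. No batch is given for the samples.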

Additional observations from a re-analysis of the deposited data

How the results depend on the processing

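*Angpt1* was lower under all 14 alternatives. Its adjusted p missed the threshold with length-scaled counts in edgeR (-2.83, adjusted p = 0.0515) and without any 1 mouse (-3.01 to -2.64), so that the count of the 9 genes past the threshold was 0 there (0 to 0 without 1 mouse). Over all genes, 10 were lower and 0 higher. The lower count was 326 with DESeq2, 327 with DESeq2 on length-scaled counts, 3 with edgeR on length-scaled counts, 62 without a filter and 0 to 7 without 1 mouse (0 without mouse 5, 7 or 8, 1 without mouse 24, 2 without mouse 23). The higher count was 59 with DESeq2, 64 with DESeq2 on length-scaled counts, 4 without a filter, and 1 with RLE factors or filterByExpr. Of the signalling list, 4 genes passed with DESeq2 on either kind of counts and 1, *Pdgfrb*, without a filter. The cause was not tested. Signs turned as follows. *Csf1r* was -0.90 without mouse 8 (-0.90 to 0.70 over the 6 omissions). With scaling by library size only, which moved the median of all genes by -0.17, *Il3ra* was -0.082, *Flt3l* -0.16, *Fes* -0.045 and *Ptpn6* -0.14. Without 1 mouse, *Il3ra* ranged from -0.15 to 0.41, *Flt3l* from -0.071 to 0.11, *Csf2rb2* from -0.055 to 0.55, *Fes* from -0.15 to 0.30, *Ptpn6* from -0.14 to 0.23 and Kit-204 from -0.63 to 0.42. The log2 ratio difference ranged from -0.70 to 1.92 for *Csf3r* to *Csf1r* and from -0.28 to 0.26 for *Csf2ra* to *Csf2rb*. *Tet2* was -0.046 (edgeR) and -0.049 (DESeq2) on length-scaled counts. *Kit*, *Flt3*, *Csf3r*, *Csf2ra* and *Csf2rb* kept their sign and stayed short of the threshold under the alternatives run. No paired analysis was possible because the genotypes share no mouse numbers. *Tek* is limited by counts, whereas *Flt3*, with 59 to 1910 counts per mouse, is limited by the spread between mice.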
